A study of Mus musculus with 7 samples.

Results

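Beta cells of the pancreatic islet secrete insulin in step with the glucose they metabolise, and 9 genes that bear on that coupling are described here across the cell types of the mouse islet. The 9 genes were chosen by name and fall into 3 roles. Slc2a2, Slc2a1, Hk1 and G6pc2 act on the entry of glucose and on its first phosphorylation. Pcx, Gpd2 and Pdk4 act on the fate of pyruvate and of cytosolic reducing power, and Ldha and Slc16a1 act on lactate. All 9 were among the 23465 genes in the tables, and their levels were measured in every cell type that the authors named, the endothelial, stellate and macrophage clusters included.

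In rodents, glucose enters beta cells through the low-affinity transporter GLUT2 so that its uptake follows the blood level. Beta cells send pyruvate and NADH to the mitochondria rather than to lactate. Several genes that most tissues use are kept silent in beta cells and are known as disallowed genes. Ldha, Slc16a1 and Hk1 are the best known of them, since a high-affinity hexokinase or an entry route for pyruvate and lactate would let insulin be released when glucose is low.

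The samples were islets of female mice aged 10 weeks, isolated with collagenase and dissociated with Accutase, and the series' design text gives the strain as C57BL/6. The labels name no genotype other than this and no treatment of the animals. The series holds 7 samples in 4 groups, and the 2 libraries analysed here are those of the modified 5' droplet assay read with Nanopore long reads. The modification consisted of extra dNTP at 2 steps and of longer extensions, of 2 h instead of 45 min and of 3 min instead of 1 min. Insulin cDNA had been depleted with a Cas9-based panel before sequencing, so insulin levels are those of depleted libraries. Whether each library had its own animals is not in the labels, so p-values measure only the spread between these libraries, which may be technical.

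The deposited tables hold UMIs (unique molecular identifiers, each counting 1 captured molecule) of every gene and annotated transcript in every cell. Replicate 1 held 4814 cells with 11012364 UMIs and a median of 2110 per cell, and replicate 2 held 1093 cells with 12092393 UMIs and a median of 9949. The libraries therefore had similar totals spread over different numbers of cells, and 5 cell barcodes occurred in both. The authors' cell table named 961 and 239 alpha cells, 965 and 318 delta cells, 283 and 41 PP cells, 141 and 26 endothelial cells, 118 and 27 quiescent stellate cells, 62 and 7 macrophages, and 2284 and 435 beta cells in replicates 1 and 2. Levels are given as CPM, the UMIs of a gene relative to all UMIs of the summed cells of a type. They are compared between cell types and not between genes.

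Each named type had the highest summed CPM of its own marker list. The check also found 2 small clusters that go against their name. Cluster 16, named delta, had 7 cells in each library, with 0 and 39.3 CPM of Sst and 3707 and 3639 CPM of Prph, a neurofilament gene of peripheral neurons. Cluster 15, named endothelial, had 12 and 16 cells, with 0 and 3.45 CPM of Plvap and 829 and 1050 CPM of Krt19, a keratin of duct cells. They are called cluster 16 and the duct-led cluster below. For results that rest on them, their share of the UMIs or a value without them is given. Other delta clusters held a second hormone. Cluster 12 had 147578 and 92116 CPM of glucagon (Gcg), and clusters 7 and 8 had Ins2 at 3626 and 569 CPM and at 4966 and 3654 CPM. Beta-marker genes were present in every type, at 2.02 and 6.71% of their summed beta level in alpha cells, 38.4 and 40.7% in delta cells and 4.87 and 9.10% in PP cells.

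Slc2a2 encodes GLUT2, the main glucose transporter of rodent beta cells (GRCm38, chr3:28697903-28731359, plus strand). It had 12.6 and 49.4 CPM in alpha cells, 266 and 144 in delta cells, 17.5 and 34.3 in PP cells, 77.0 and 125 in endothelial cells, 92.2 and 40.3 in stellate cells and 64.1 and 32.3 in macrophages, against 1032 and 686 in beta cells. The lower beta value exceeded the higher value of every other type. In the order of means, beta cells were followed by delta and then endothelial cells without overlap, and from endothelial cells down each neighbouring pair overlapped.

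G6pc2 encodes the islet glucose-6-phosphatase catalytic subunit, which turns glucose-6-phosphate back into glucose (GRCm38, chr2:69211073-69227841, plus strand). It had 43.9 and 109 CPM in alpha cells, 677 and 410 in delta cells, 31.7 and 75.2 in PP cells, 57.8 and 22.6 in endothelial cells, 207 and 70.5 in stellate cells and 275 and 32.3 in macrophages, against 2690 and 1795 in beta cells. Beta cells were again highest and delta cells next, with no overlap between them. The macrophage values rest on 30 and 2 UMIs.

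**Figure D1:**
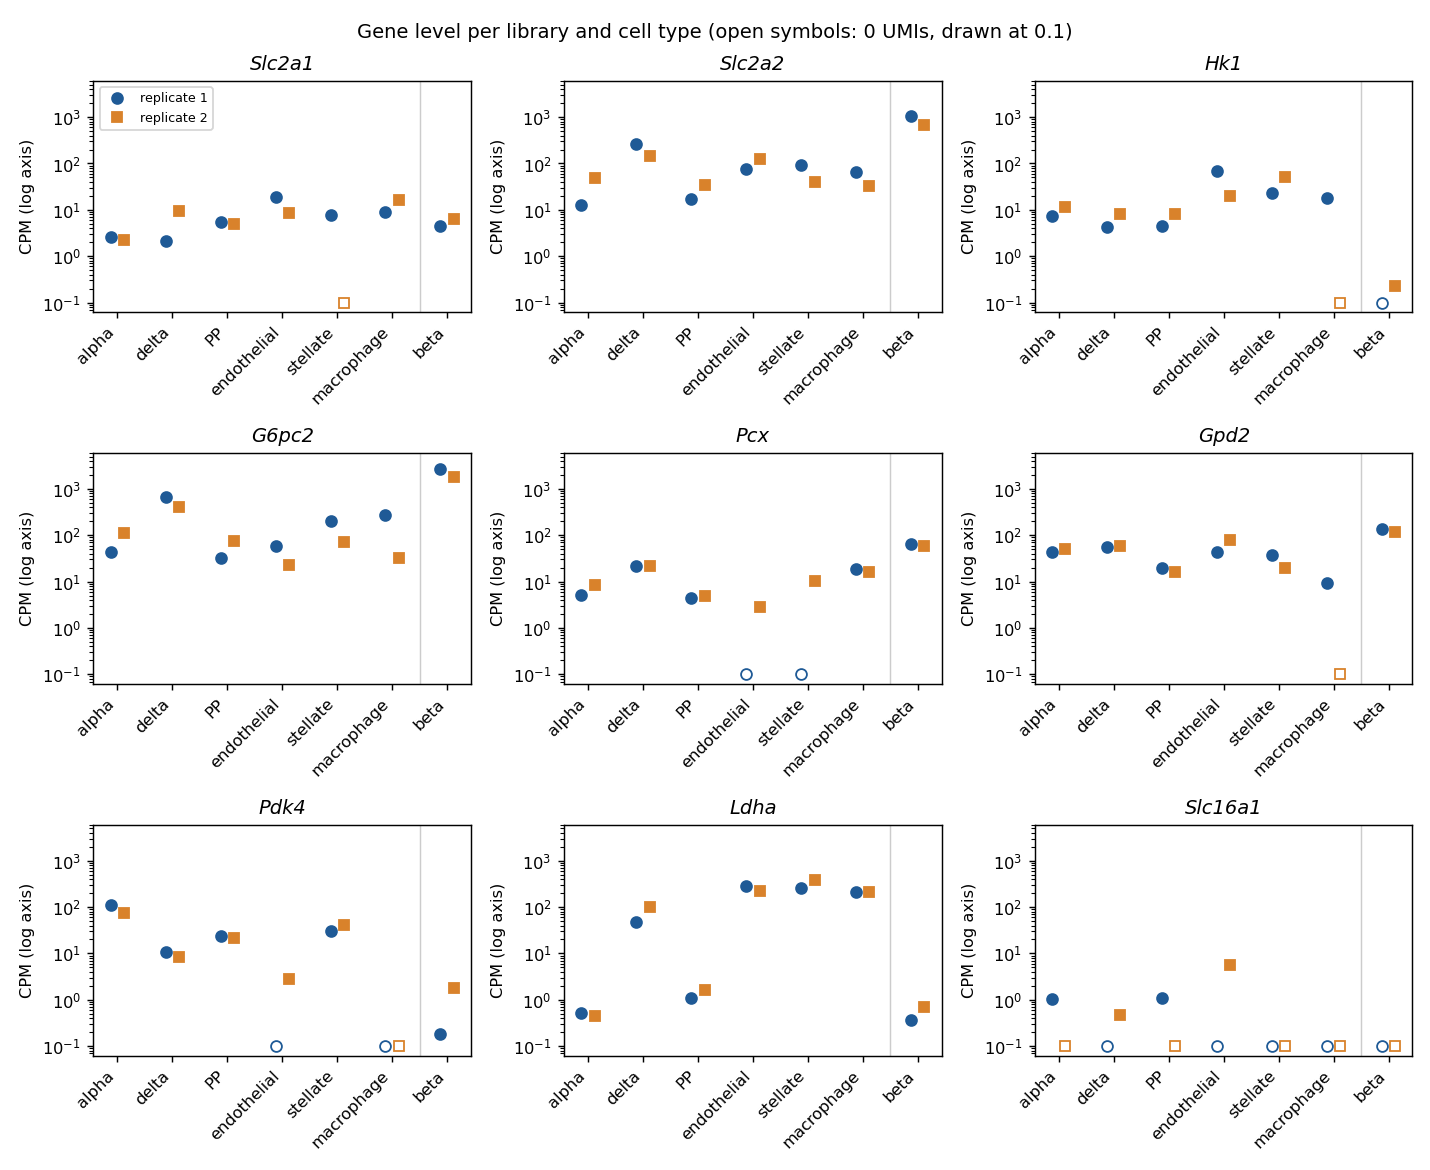
CPM of each of the 9 genes (log axis, 1 panel a gene) in the 7 cell types the authors named, with beta cells at the right; circles are replicate 1, squares replicate 2, and open symbols mark 0 UMIs, drawn at 0.1. Slc2a2, G6pc2, Pcx and Gpd2 were highest in beta cells in both libraries, Pdk4 in alpha cells, and Ldha in the 3 non-endocrine types.

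In a fit over 12 sums (6 types in 2 libraries, with the library as a block), 13265 genes were tested with edgeR's quasi-likelihood test and Benjamini-Hochberg adjustment, with a threshold of 0.05. Macrophages, with 7 cells in replicate 2, were not tested, and Slc16a1 was too sparse to be tested, which left 8 of the 9 genes. Because the authors built the cell types from the counts of the same cells, these tests are circular in part. In alpha cells 2 of the 8 were higher and 4 lower, where 19.0% of all genes tested were called in either direction (9.11% higher and 9.91% lower). Delta cells had 3 higher and 4 lower (13.8% of all genes, 8.78% higher and 5.02% lower), and PP cells 2 higher and 4 lower (17.3%, 8.89% higher and 8.43% lower). Endothelial cells had 2 higher and 4 lower (35.9%, 18.4% higher and 17.5% lower), and stellate cells 3 higher and 4 lower (20.5%, 11.2% higher and 9.20% lower). Of all genes called, 47.9% were higher in alpha and 51.3% in PP cells, against 17.6 and 19.5% of calls without TMM scaling, while 6 of the 8 genes were called in each of these types under both scalings. The same 4 genes, Slc2a2, G6pc2, Pcx and Gpd2, were the lower ones in all 5 comparisons.

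The log2 fold change of Slc2a2 relative to beta cells was -4.37 ± 0.40 (SE) in alpha cells, -2.06 ± 0.34 in delta cells, -4.72 ± 0.45 in PP cells, -3.15 ± 0.42 in endothelial cells and -3.70 ± 0.52 in stellate cells, with adjusted p between 1.27e-09 (alpha) and 5.34e-05 (delta) by edgeR. For G6pc2 it was -4.43 ± 0.41, -2.02 ± 0.36, -5.03 ± 0.45, -6.03 ± 0.51 and -4.02 ± 0.47 in the same 5 types, with adjusted p between 1.25e-10 (endothelial) and 1.31e-04 (delta). Both genes thus fell least in delta cells. The libraries agreed in direction and not in size. Fitted on replicate 1 alone, the alpha difference was -5.91 for Slc2a2 and -5.49 for G6pc2, and on replicate 2 alone it was -3.39 and -3.64.

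**Figure D2:**
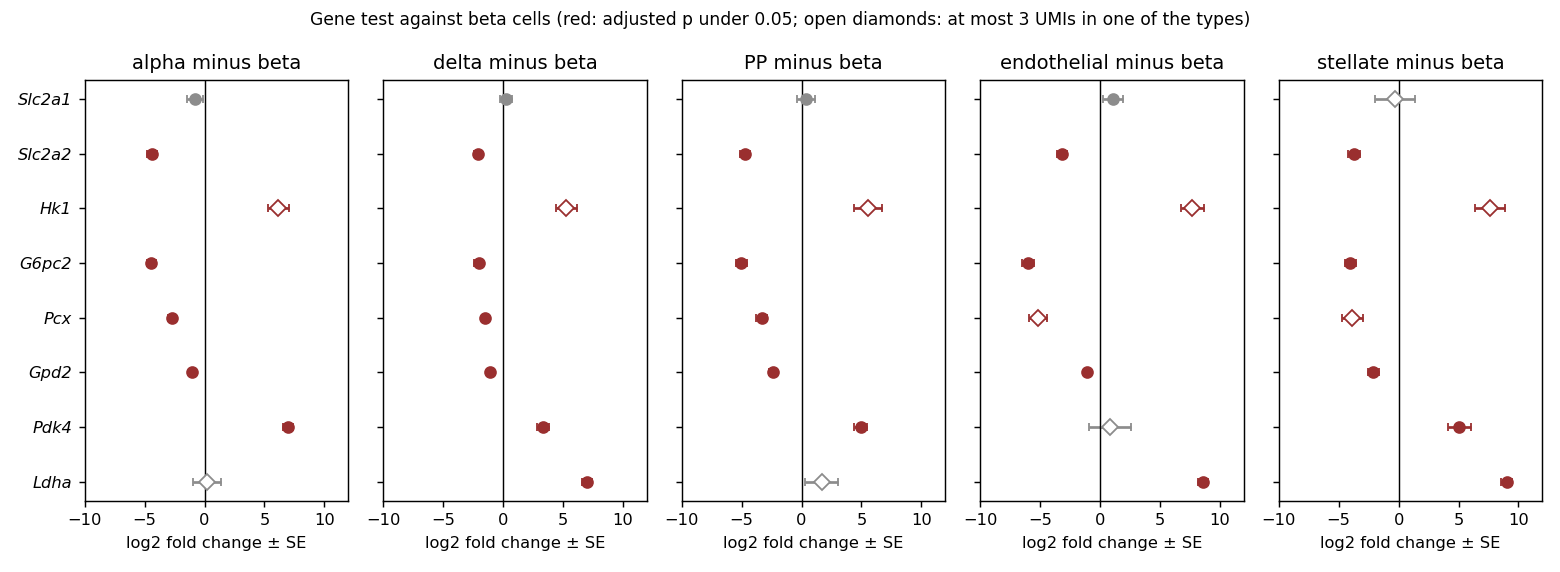
Log2 fold change relative to beta cells (x axis, bars ± SE of the fit) of the 8 genes tested, 1 panel a cell type; red marks an adjusted p under 0.05 and open diamonds a comparison with at most 3 UMIs in one of its types, where the fitted value depends on the prior count. Slc2a2, G6pc2, Pcx and Gpd2 lie below 0 in all 5 panels, and Hk1 above 0 in all 5 on 1 beta UMI.

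How far beta-marker genes moved with the non-beta values of these genes depended on the marker. In alpha cells Slc2a2 stood at 1.22 and 7.20% of its beta level and G6pc2 at 1.63 and 6.10%, beside 2.32 and 5.56% for Ins2 and 1.96 and 6.81% for Iapp, a hormone gene of beta cells. In PP cells Slc2a2 stood at 1.69 and 5.00% and G6pc2 at 1.18 and 4.19%, beside 3.46 and 3.90% for Ins2. Iapp was higher there, at 5.03 and 9.59%, and Mafa was at 0 and 3.22%. In delta cells the values were 25.7 and 20.97% for Slc2a2, 25.1 and 22.8% for G6pc2 and 30.2 and 24.0% for Ins2. Delta Iapp was at 39.4 and 42.3%, higher in replicate 2, whereas Slc2a2, G6pc2, Ins2 and Mafa (23.0 and 22.3%) were lower there. The part of beta-cell RNA in the alpha, PP and delta values was not tested. In endothelial cells Slc2a2 was higher in replicate 2, at 7.46 and 18.1%. Ins2 and Iapp were lower there, at 6.26 and 1.44% and at 2.94 and 0.980%.

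The number of Slc2a2 UMIs per G6pc2 UMI gave a second view of the same cells. It was 0.286 (95% exact counting interval 0.174 to 0.454) and 0.452 (0.359 to 0.567) in alpha cells and 0.393 and 0.351 in delta cells, against 0.384 (0.372 to 0.396) and 0.382 (0.367 to 0.399) in beta cells. The alpha and delta intervals of both libraries contained the beta ratio of the same library, the delta interval of replicate 2 running from 0.320 to 0.385. The delta ratio is that of a mix of clusters. In cluster 8 it was 0.308 (0.267 to 0.354) and 0.297 (0.264 to 0.335), below the beta intervals. Cluster 7 had 0.521 (0.448 to 0.605) and 0.567 (0.371 to 0.857). Cluster 3, the delta cluster with the most Sst, had 0.410 (0.287 to 0.579) and 0.538 (0.433 to 0.667). Beta cluster 5 had 0.409 (0.365 to 0.459) and 0.230 (0.195 to 0.270). In endothelial cells the ratio was 1.33 (0.592 to 3.09) and 5.50 (2.56 to 13.5). Intervals and floors here cover counting error only.

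The endothelial Slc2a2 UMIs came largely from the duct-led cluster. Those cells held 8 of 16 and 44 of 44 of the endothelial Slc2a2 UMIs, at 214 and 152 CPM, with 0 and 5 UMIs of G6pc2, beside 18.0 and 81.9% of all endothelial UMIs. The Plvap-led cluster 11, with 129 and 10 cells, had 47.0 and 0 CPM. Without the duct-led cluster the endothelial difference of Slc2a2 was -4.98, against -3.15 with it.

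Within the delta name the genes followed the cluster rather than the label. Cluster 3, with 435 and 157 cells and the highest somatostatin (Sst, 153701 and 111202 CPM), had Slc2a2 at 47.0 and 80.6 CPM and G6pc2 at 114 and 150 CPM. Cluster 8, where Ins2 was high, had Slc2a2 at 428 and 291 CPM and G6pc2 at 1392 and 978 CPM. Cluster 7 had 806 and 214 CPM of Slc2a2, and its Ins2 likewise differed between libraries, as given above. Cluster 8 alone held 55.2 and 69.4% of the delta UMIs of G6pc2. Taking only cluster 3 as delta, the log2 fold change was -3.67 for Slc2a2 and -3.95 for G6pc2. Of these 3 clusters, cluster 3 had the least Slc2a2, G6pc2 and Ins2 in both libraries (Ins2 at 805 and 385 CPM), and the part of beta-cell RNA in these values was not tested.

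Among beta clusters, 0, 2 and 4 had Slc2a2 between 999 and 1281 CPM in replicate 1 and between 722 and 811 CPM in replicate 2. Cluster 5, with 315 and 56 cells, had 581 and 281 CPM of Slc2a2 and 1419 and 1224 CPM of G6pc2, below the other beta clusters in both libraries. It also had the lowest Mafa, a beta-cell transcription factor, at 26.1 and 79.4 CPM, and 6924 and 16715 CPM of Ppy, the PP hormone gene. Pcx was not set apart in the same way, at 66.1 and 51.9 CPM in cluster 5, against 62.1 and 59.0 CPM in cluster 0. These cluster values are descriptions, since the clusters were made from these cells.

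**Figure D3:**
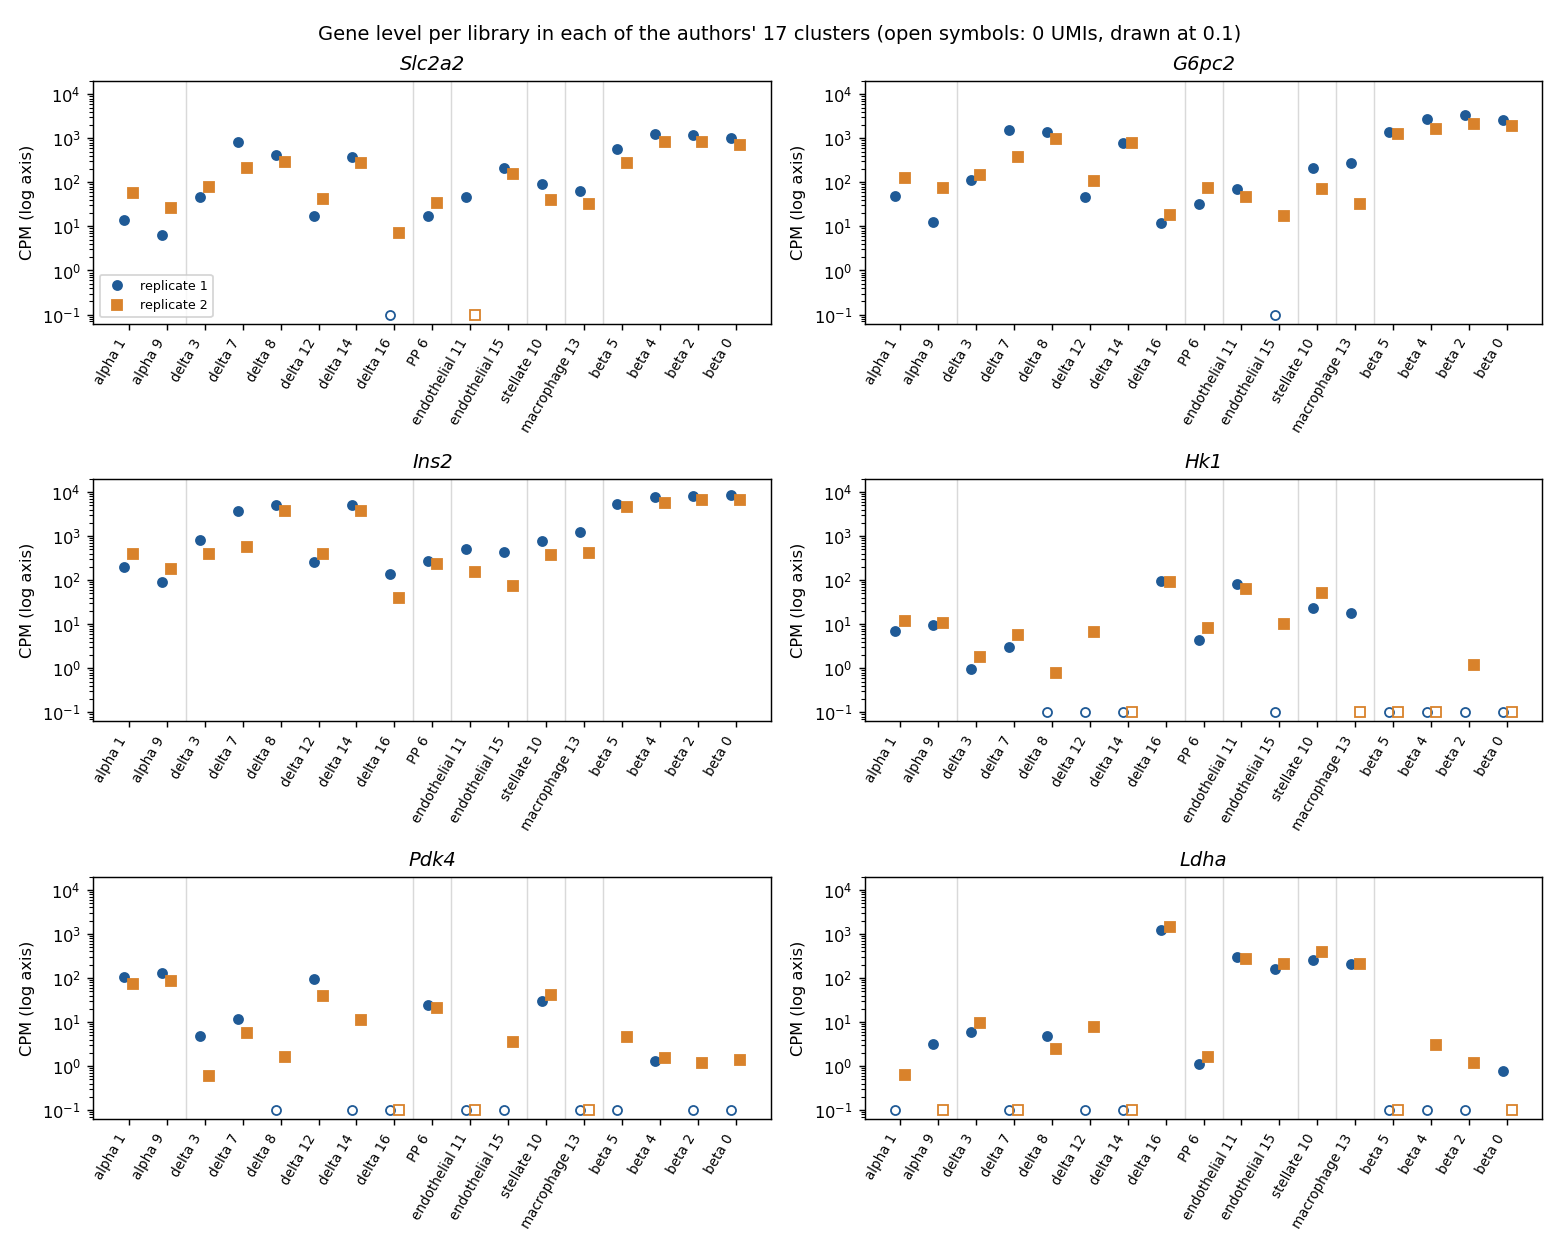
CPM (log axis) of Slc2a2, G6pc2, Ins2, Hk1, Pdk4 and Ldha in each of the authors' 17 clusters, grouped by the name the authors gave, with beta clusters at the right; circles are replicate 1, squares replicate 2, and open symbols mark 0 UMIs, drawn at 0.1. Delta cluster 16 stands out for Ldha and Hk1 and delta cluster 12 for Pdk4, and Slc2a2 in endothelial cluster 15 is at 214 and 152 CPM.

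The share of cells with at least 1 UMI of G6pc2 was 6.66 and 46.4% of alpha cells, 37.7 and 63.8% of delta cells and 4.96 and 23.1% of endothelial cells, against 94.1 and 99.1% of beta cells. Median depth was 1959 and 8917 UMIs in alpha, 2015 and 12693.5 in delta, 1121 and 10417 in endothelial and 2223.5 and 9947 in beta cells. After each cell was thinned to 1000 UMIs the shares were 3.77 and 9.62% in alpha, 27.5 and 22.6% in delta and 2.35 and 3.85% in endothelial cells, against 86.8 and 77.9% in beta cells. Thinning left out 59 alpha, 165 delta, 56 endothelial and 95 beta cells of replicate 1 and none of replicate 2. At the same depth stellate cells had 14.3 and 7.41% and macrophages 6.00 and 14.3%, on 42 and 27 stellate cells, 50 and 7 macrophages and 85 and 26 endothelial cells. The alpha share lay within the range of these 3 non-endocrine types in both libraries. The top of that range rests on 42 stellate cells in replicate 1 and on 7 macrophages in replicate 2. Whether the alpha share is background was not tested.

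Slc2a1 encodes GLUT1, the high-affinity transporter that most cells and human beta cells rely on (GRCm38, chr4:119108711-119137983, plus strand). It was sparse, with 2.62 and 2.19 CPM in alpha cells, 2.18 and 9.55 in delta cells, 5.47 and 4.91 in PP cells, 19.3 and 8.49 in endothelial cells, 7.68 and 0 in stellate cells and 9.15 and 16.1 in macrophages, against 4.41 and 6.38 in beta cells. Every neighbouring pair in the order overlapped. No comparison passed, with log2 fold changes between -0.76 (alpha, adjusted p = 0.501 by edgeR) and 1.08 (endothelial, adjusted p = 0.338). The counts were 4 and 3 UMIs in endothelial cells, so a difference of that size was not detectable at this depth.

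Hk1 encodes hexokinase 1, a high-affinity enzyme counted among the disallowed genes (GRCm38, chr10:62268855-62379908, minus strand). It had 7.32 and 11.4 CPM in alpha cells, 4.35 and 8.15 in delta cells, 4.37 and 8.18 in PP cells, 67.4 and 19.8 in endothelial cells, 23.0 and 50.4 in stellate cells and 18.3 and 0 in macrophages, against 0 and 0.228 in beta cells. Beta cells held 1 Hk1 UMI among 9829676, and none of the other tested types fell that low in either library. Against that single UMI the ratio over both libraries was 93.7 in alpha cells (95% counting interval 15.9 to 3792), 67.1 in delta cells (11.4 to 2709), 58.0 in PP cells (8.03 to 2541), 368 in endothelial cells (59.2 to 15217) and 343 in stellate cells (46.0 to 15210). Hk1 passed the test in all 5, with adjusted p between 8.39e-08 (endothelial) and 9.61e-04 (PP) by edgeR. The PP call was lost with thinned cells (adjusted p = 0.0861) and with types taken from clusters of transcripts (adjusted p = 0.333), and the delta call with thinned cells (adjusted p = 0.056), all by edgeR. In delta cells 8 of 10 and 25 of 35 Hk1 UMIs lay in cluster 16, and with cluster 3 alone as delta the call was lost (log2 fold change 3.19, adjusted p = 0.130 by edgeR).

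Pcx encodes pyruvate carboxylase, which feeds pyruvate into the citric acid cycle as oxaloacetate (GRCm38, chr19:4510472-4621752, plus strand). It had 5.23 and 8.31 CPM in alpha cells, 22.2 and 21.2 in delta cells and 4.37 and 4.91 in PP cells, whereas beta cells had 64.5 and 58.6. The delta values are those of a mix of clusters. Cluster 3 had 6.85 and 10.9 CPM, cluster 7 had 56.5 and 22.5 and cluster 8 had 30.8 and 44.0. Macrophages had 18.3 and 16.1 CPM from 3 UMIs, and endothelial and stellate cells 1 UMI each. The log2 fold change was -2.74 ± 0.30 (SE) in alpha, -1.47 ± 0.23 in delta and -3.33 ± 0.43 in PP cells, with adjusted p between 3.33e-08 (alpha) and 2.35e-05 (delta) by edgeR. The ratio to beta cells was 0.0288 (95% counting interval 0.000728 to 0.161) in endothelial and 0.0705 (0.00178 to 0.394) in stellate cells. The 2 libraries lay closer together for Pcx than for Slc2a2 or G6pc2, with 61.5 ± 4.18 CPM in beta cells (SD, n = 2).

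Gpd2 encodes the mitochondrial glycerol-3-phosphate dehydrogenase, the inner-membrane enzyme of the shuttle that carries cytosolic NADH electrons to the respiratory chain (GRCm38, chr2:57237635-57370719, plus strand). It had 42.9 and 50.3 CPM in alpha cells, 56.2 and 58.2 in delta cells, 19.7 and 16.4 in PP cells, 43.3 and 79.3 in endothelial cells and 38.4 and 20.2 in stellate cells, against 135 and 116 in beta cells. This was the mildest of the 4 beta-high genes, with log2 fold changes of -1.01 ± 0.22 in alpha, -1.10 ± 0.21 in delta, -2.37 ± 0.30 in PP, -1.06 ± 0.30 in endothelial and -2.11 ± 0.47 (SE) in stellate cells and adjusted p of at most 0.00524 (endothelial) by edgeR. PP cells stood below alpha cells and below the delta name as a whole in both libraries. Within the delta name, cluster 3 had 19.6 and 31.5 CPM, level with PP cells in replicate 1. Cluster 7 had 125 and 50.7 CPM and cluster 8 had 84.3 and 96.1. The endothelial value differed between the libraries, at -1.80 in replicate 1 alone and -0.61 in replicate 2 alone, and the cause was not tested. The duct-led cluster held 2 of 9 and 23 of 28 endothelial Gpd2 UMIs, so the libraries also differ in their mix of cells. That cluster had 53.5 and 79.5 CPM, and cluster 11 had 41.1 and 78.3. Its cytosolic partner Gpd1 passed only in endothelial cells, on 2 UMIs there against 177 in beta cells.

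Pdk4 encodes a kinase that switches pyruvate dehydrogenase off and so spares pyruvate from oxidation (GRCm38, chr6:5483351-5496309, minus strand). It had 109 and 76.1 CPM in alpha cells, 10.9 and 8.38 in delta cells, 24.1 and 21.3 in PP cells, 0 and 2.83 in endothelial cells, 30.7 and 40.3 in stellate cells and 0 in macrophages, against 0.184 and 1.82 in beta cells. Alpha cells were highest in both libraries, followed without overlap by stellate, PP and delta cells. The beta values came from 1 and 8 UMIs. Over both libraries the ratio to beta cells was 99.7 in alpha cells (95% counting interval 52.0 to 220).

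Pdk4 was higher in alpha (log2 fold change 6.96 ± 0.38 SE), delta (3.32 ± 0.50), PP (4.92 ± 0.55) and stellate cells (5.06 ± 0.95), with adjusted p between 6.13e-14 (alpha) and 1.62e-04 (stellate) by edgeR. In endothelial cells it held 1 UMI, and the ratio of 1.95 (95% counting interval 0.0444 to 14.1) did not separate them from beta cells. Both alpha clusters carried it, cluster 1 at 106 and 72.8 CPM and cluster 9 at 128 and 84.5 CPM. Of the delta Pdk4 UMIs, 64.0 and 83.3% lay in the Gcg-rich cluster 12, and with cluster 3 alone as delta the call was lost (1.41, adjusted p = 0.387 by edgeR). At equal depth 10.6 and 5.44% of alpha cells held a Pdk4 UMI, against 0.0457 and 0.230% of beta cells; unthinned, the shares were 17.8 and 47.3%, against 0.0438 and 1.61%. The size of the alpha difference depended on the library, at 9.18 in replicate 1 alone and 5.73 in replicate 2 alone.

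Ldha encodes the muscle-type subunit of lactate dehydrogenase, which turns pyruvate into lactate (GRCm38, chr7:46841475-46855627, plus strand). It had 0.523 and 0.438 CPM in alpha cells, 48.8 and 99.4 in delta cells, 1.09 and 1.64 in PP cells, 279 and 218 in endothelial cells, 254 and 393 in stellate cells and 211 and 210 in macrophages, against 0.367 and 0.684 in beta cells. The 3 non-endocrine types were alike in being high, and alpha, PP and beta cells in being close to nothing. Those 3 endocrine types held 2, 2 and 5 UMIs in both libraries together. The ratio to beta cells was 0.937 in alpha cells (95% counting interval 0.0892 to 5.72) and 2.58 in PP cells (0.245 to 15.7), intervals too wide to call them equal.

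Endothelial and stellate cells were higher in Ldha than beta cells, by 8.60 ± 0.42 and 9.03 ± 0.47 on the log2 scale (SE, adjusted p = 7.19e-16 and 5.10e-15 by edgeR). Cluster 11 had 305 and 266 CPM and the duct-led cluster 160 and 207, so both parts of the endothelial name carried it. Delta cells also passed, at 7.003 ± 0.40 (adjusted p = 2.02e-13), yet 103 of 112 and 402 of 427 of their Ldha UMIs lay in the 14 cells of cluster 16, at 1216 and 1437 CPM. Without that cluster the delta difference was 3.26, and with cluster 3 alone as delta it was 3.92, where Ldha stood at 5.87 and 9.70 CPM. In endothelial cells 33.3 and 88.5% of cells held an Ldha UMI, against 0.0876 and 0.460% of beta cells; thinned to 1000 UMIs the shares were 32.9 and 15.4%, against 0.0457 and 0% of beta cells.

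Slc16a1 encodes MCT1, a carrier of lactate and pyruvate (GRCm38, chr3:104638668-104658462, plus strand). It had 7 UMIs in all, 2 in alpha, 2 in delta, 1 in PP and 2 in endothelial cells and 0 in stellate cells, macrophages and beta cells. Among beta cells 0 of 2284 and 0 of 435 held a UMI, which allows a share of up to 0.131 and 0.690% of cells with a UMI (3 cells of the total). At this depth Slc16a1 could not be told from 0 in any type, so no fold is given. Of its relatives, Slc16a7 (MCT2) was higher in delta cells, at 23.5 and 15.1 CPM, against 0.919 and 0.228 in beta cells (log2 fold change 4.95 ± 0.55 SE, adjusted p = 1.065e-07 by edgeR).

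The long reads also place molecules on annotated transcripts. Of 65 transcripts that GENCODE M21 lists for the 9 genes, 26 had a UMI. A single protein-coding transcript held 99.3% of the placed UMIs of Slc2a2 (Slc2a2-201, 7714 UMIs), 98.7% of Ldha (Ldha-202, 678), 97.4% of Pdk4 (Pdk4-201, 411), 98.5% of Slc2a1 (Slc2a1-201, 66), 92.3% of Hk1 (Hk1-202, 36) and 91.3% of Gpd2 (Gpd2-201, 211), and all 7 of Slc16a1. These genes thus left little to choose between, at the number of molecules placed. Pcx was split between Pcx-201, with 23 UMIs, and Pcx-203, a processed transcript of 275 bases with 21.

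Placement differed by gene and limits these shares. Of the gene-level UMIs, 79.6 and 72.1% were placed on a transcript for Slc2a2, 83.9 and 88.1% for Ldha, 78.2 and 92.4% for Pdk4 and 45.2 and 42.0% for G6pc2, but 6.46 and 6.70% for Pcx and 10.9 and 13.6% for Gpd2. Over 11861 genes with at least 100 UMIs the median was 70.9% (quartiles 37.2 and 95.2%), and 8.95% of genes were under 15%. The isoforms of the unplaced Pcx and Gpd2 molecules were not observed.

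G6pc2 was the gene with a real choice of transcripts, and the choice concerned exon 4. G6pc2-202 had 8268 UMIs and lacks that exon, and G6pc2-201 had 3312 and includes it. Exon 4 is 116 bases long (GRCm38, chr2:69225812-69225927, plus strand), which is not a multiple of the codon length, and the annotated coding part is 462 bases (154 codons) in G6pc2-202, against 1065 bases (355 codons) in G6pc2-201. The sequences, from the GENCODE M21 transcripts, are shown because the junction between exons is what tells the transcripts apart. In the first line the capitals are exon 4 and the lower case the 30 bases of exons 3 and 5 beside it, and in the second the capitals are the first 30 bases of exon 5, joined directly to exon 3.
G6pc2-201 exon 4: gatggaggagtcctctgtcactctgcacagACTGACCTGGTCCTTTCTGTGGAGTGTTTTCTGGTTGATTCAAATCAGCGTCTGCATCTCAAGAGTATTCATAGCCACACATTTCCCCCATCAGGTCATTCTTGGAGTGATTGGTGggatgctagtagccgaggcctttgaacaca
G6pc2-202 junction: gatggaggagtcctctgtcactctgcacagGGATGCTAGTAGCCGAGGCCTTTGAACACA

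The exon 4-lacking transcript was the more abundant in every type with enough UMIs. Its share of the placed G6pc2 UMIs was 68.4% (95% exact binomial interval 51.3 to 82.5) and 79.6% (70.3 to 87.1) in alpha cells, 73.8% (70.1 to 77.3) and 65.7% (62.0 to 69.3) in delta cells and 94.1% (71.3 to 99.9) and 69.6% (47.1 to 86.8) in PP cells, against 72.2% (71.1 to 73.3) and 70.1% (68.5 to 71.6) in beta cells. The order of the types differed between the libraries. The G6pc2 level was 1.63 and 6.10% of the beta level in alpha cells and 1.18 and 4.19% in PP cells. The part of beta-cell RNA in the alpha, delta and PP shares was not tested. Endothelial and stellate cells held 7 and 18 placed UMIs, too few for a share.

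In the test of transcript usage (edgeR diffSpliceDGE, Benjamini-Hochberg over all genes with a choice), none of the genes tested was called in any type. G6pc2 and Pcx were tested in all 5 comparisons and Slc2a2 in stellate cells alone, and 0 of these passed an unadjusted p of 0.05 as well. The G6pc2 p lay between 0.369 and 0.932 before adjustment. Beta-cell RNA among the G6pc2 UMIs of the other types was not taken out for this test. Among all genes tested for usage 0.991% were called in alpha, 0.815% in delta, 0.687% in PP, 1.64% in endothelial and 0.909% in stellate cells. In the beta clusters the G6pc2-202 share lay between 69.0 and 74.1%, with cluster 5 at 72.6 and 69.0%.

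**Figure D4:**
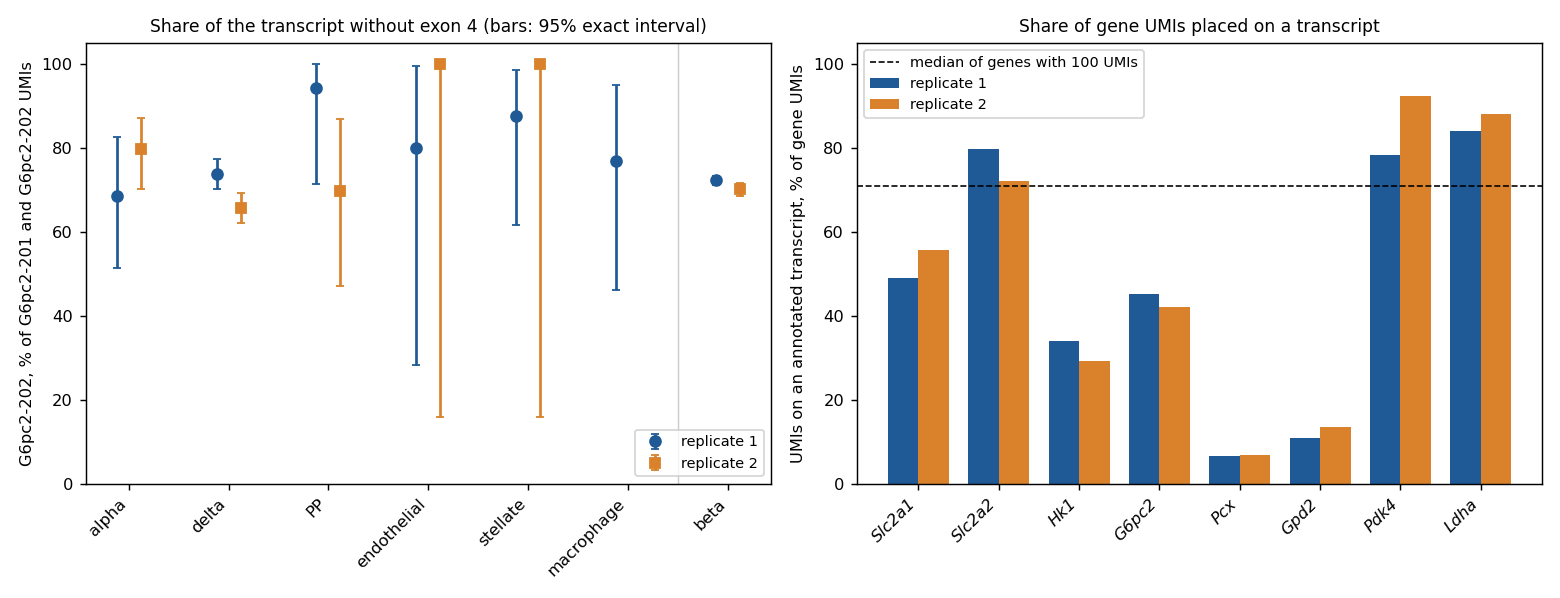
Left, share of G6pc2-202 among G6pc2-201 and G6pc2-202 UMIs (percent) by cell type and library, with 95% exact binomial intervals; right, percent of the gene-level UMIs placed on an annotated transcript for 8 genes, with a dashed line at the median of 70.9% over genes with at least 100 UMIs. The narrow beta intervals lie at 72.2 and 70.1%, and Pcx and Gpd2 have the lowest placed shares.

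The promoters of G6pc2, Slc2a2, Ldha and Slc16a1 are shown because these genes mark both ends of the pattern, high in beta cells or close to absent there. Each is the 250 bases before the start that RefSeq gives (GRCm38.p6, plus strand), and the G6pc2 start used lies 22 bases before that of G6pc2-201. Capitals mark TGCTGAC, a half-site of Maf factors, and ACGTG, the core of the hypoxia response element, on either strand.
G6pc2 chr2:69219699-69219948: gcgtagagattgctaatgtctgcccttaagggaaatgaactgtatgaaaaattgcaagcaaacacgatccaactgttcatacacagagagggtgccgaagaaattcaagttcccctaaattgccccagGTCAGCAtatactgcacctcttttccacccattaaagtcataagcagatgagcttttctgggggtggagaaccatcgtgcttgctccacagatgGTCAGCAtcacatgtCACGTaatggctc
Slc2a2 chr3:28697653-28697902: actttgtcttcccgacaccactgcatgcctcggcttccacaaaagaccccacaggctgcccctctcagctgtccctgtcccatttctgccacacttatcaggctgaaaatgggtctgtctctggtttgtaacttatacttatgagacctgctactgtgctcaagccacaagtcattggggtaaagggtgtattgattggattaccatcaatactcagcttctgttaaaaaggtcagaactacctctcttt
Ldha chr7:46845554-46845803: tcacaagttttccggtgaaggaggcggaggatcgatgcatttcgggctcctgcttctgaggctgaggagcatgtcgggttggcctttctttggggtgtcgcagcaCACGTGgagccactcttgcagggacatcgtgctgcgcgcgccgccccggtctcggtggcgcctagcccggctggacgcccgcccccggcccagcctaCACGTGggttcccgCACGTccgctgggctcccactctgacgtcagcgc
Slc16a1 chr3:104638414-104638663: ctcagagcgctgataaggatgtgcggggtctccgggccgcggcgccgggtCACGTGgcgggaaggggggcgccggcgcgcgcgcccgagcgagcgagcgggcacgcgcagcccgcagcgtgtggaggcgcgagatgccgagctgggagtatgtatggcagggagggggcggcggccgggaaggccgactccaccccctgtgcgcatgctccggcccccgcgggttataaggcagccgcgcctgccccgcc

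TGCTGAC had 2 matches in the G6pc2 promoter shown and none in the other 13 promoters of these genes, and 3.81% of 32851 RefSeq promoters of the same length hold it. ACGTG had 5 matches in Ldha, 4 of them the strands of 2 CACGTG palindromes, and 2 in Slc16a1, both strands of 1 palindrome. CACGTG was present in 6.02% of all promoters and ACGTG in 16.6%. In the other genes ACGTG had 3 matches in Pcx, 1 each in G6pc2, Gpd2 and Slc2a1, and none in Slc2a2, Pdk4 or Hk1. The TATA box TATAAA, which 12.4% of all promoters hold, had no match in any of the 14 promoters of these genes. Neither had the homeodomain core TAATTA (4.84% of all promoters). The same held for the forkhead motif GTAAACA (3.17%). The Slc2a2 promoter held none of these and 1 match to CANNTG, which 66.2% of promoters hold. A match is a description of the letters and not a bound site.

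Other disallowed genes were read from a list of 20, of which 19 were tested. In alpha cells 3 were higher, in delta cells 8, in PP cells 4, in endothelial cells 18 and in stellate cells 16, and none was lower in any type by edgeR (none by DESeq2 and none at an unadjusted p of 0.05 by edgeR). Over all genes tested 9.11, 8.78, 8.89, 18.4 and 11.2% were higher in the same types. Without cluster 16, 7 of 18 were higher in delta cells, with cluster 3 alone as delta 6 of 18, and without the duct-led cluster 15 of 18 in endothelial cells. In these 3 settings 11.7, 14.75 and 32.8% of all genes were called in either direction, and 59.8, 52.1 and 40.4% of those were higher. The median log2 fold change of the list was 0.45, 1.56, 0.61, 5.95 and 7.18 in these types, beside 0.02, 0.00, -0.03, -0.11 and -0.28 over all genes tested. With genes at 0 UMIs in a type set at the bound of 3 UMIs, summed over the libraries, the median was 0.81, 1.56, 2.07, 5.98 and 7.09, over the 17, 18, 17, 18 and 19 genes that have a fold or a bound. The summed level of the 20 genes was 84.8 and 125 CPM in alpha, 132 and 176 in delta, 88.6 and 111 in PP, 1969 and 3193 in endothelial, 3626 and 1794 in stellate cells and 1263 and 1097 in macrophages, against 34.4 and 44.4 in beta cells. Beta cells thus had the lowest sum in both libraries, with the other endocrine types a few-fold above and the non-endocrine types far above. Few genes carried much of the endocrine sums. Of the alpha sum, Oat gave 34.0 and 59.1 CPM and Zyx 12.6 and 23.2 CPM. Of the PP sum, Oat gave 21.9 and 44.2 CPM and Zyx 24.1 and 32.7 CPM. The beta sum held 0.735 and 0.684 CPM of Oat and 3.49 and 6.84 CPM of Zyx. Acot7 gave 45.3 and 72.2 CPM of the delta sum. The sums alone do not show that the list as a whole was higher in alpha, PP or delta cells.

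Oat, ornithine aminotransferase, was higher in all 5 types. It had 34.0 and 59.1 CPM in alpha, 11.3 and 22.6 in delta, 21.9 and 44.2 in PP, 67.4 and 133 in endothelial and 192 and 292 in stellate cells, against 0.735 and 0.684 in beta cells. Its log2 fold change was 6.27 in alpha, 4.45 in delta, 5.74 in PP, 6.86 in endothelial and 8.18 in stellate cells (adjusted p of at most 1.35e-09 by edgeR). With cluster 3 alone as delta the delta value was 3.38. Zyx, the adhesion protein zyxin, was also higher in all 5 types, at 2.21 in alpha, 1.56 in delta, 2.89 in PP, 4.02 in endothelial and 4.28 in stellate cells.

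Acot7, an acyl-CoA thioesterase, had 45.3 and 72.2 CPM in delta cells and 19.3 and 19.8 in endothelial cells. Beta cells had 0 and 0.456 CPM, from 2 UMIs. The delta ratio was 309 (95% counting interval 84.9 to 2558). The fitted delta log2 fold change was 7.76, against 5.64 without cluster 16 and 6.20 with cluster 3 alone as delta. Mgst1, a membrane glutathione transferase, held 1 UMI in beta cells and had a ratio of 60.9 (10.0 to 2497) in alpha and 9462 (1691 to 374406) in endothelial cells, where the fitted log2 fold change was 12.1, and 9.18 without the duct-led cluster. Fcgrt, the neonatal Fc receptor, had 23 UMIs over both libraries in delta, 4 in PP, 74 in endothelial and 38 in stellate cells, against 0 in beta cells. Of the 20 genes, 9 held at most 3 UMIs over both libraries in alpha cells and 12 in PP cells, against 7 in beta cells, whose UMI total was the largest.

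**Figure D5:**
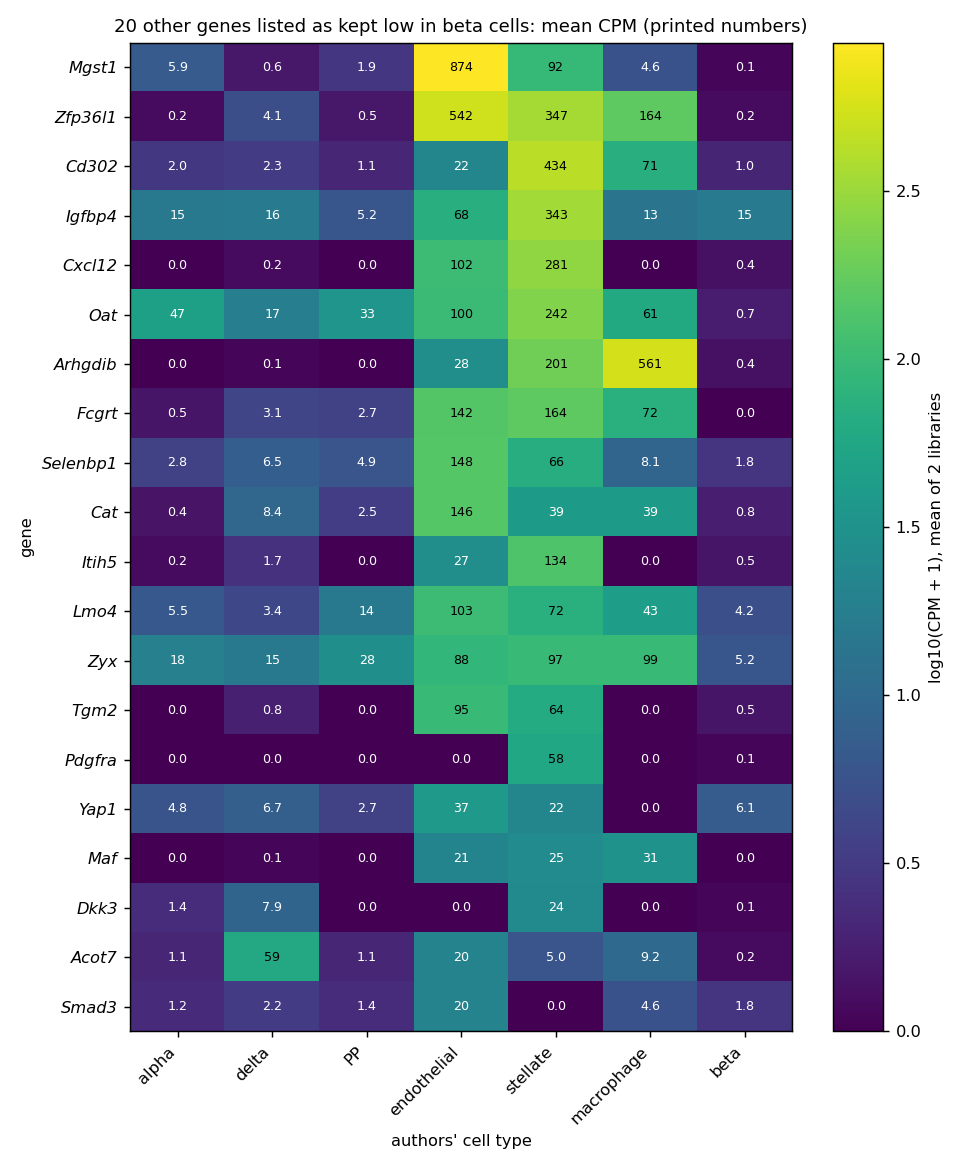
Mean CPM over 2 libraries of the 20 other genes listed as disallowed in beta cells (printed numbers; colour is log10 of CPM + 1), by cell type with beta cells at the right. Values are highest in the endothelial, stellate and macrophage columns for most genes, while Oat is low in the beta column only and Acot7 is highest in delta cells.

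The neighbouring pathways were read from fixed lists, beside which 9.91% of all genes tested were lower in alpha, 5.02% in delta, 8.43% in PP, 17.5% in endothelial and 9.20% in stellate cells. Without TMM scaling 30.4% of all genes were called in alpha (17.6% of them higher), 25.45% in PP (19.5%) and 34.7% in endothelial cells (56.65%). With no replicate block 9.66% were called in alpha cells (48.1% of them higher). The share was 11.7% in delta cells without cluster 16 (59.8% of them higher). It was 32.8% in endothelial cells without the duct-led cluster (40.4%). Among 22 tested genes of the citric acid cycle and anaplerosis, 6 were lower in alpha cells, with Acly at -1.53, Idh1 at -1.71 and Idh2 at -1.30, with 15 lower there without TMM scaling and 2 with no replicate block. Delta cells had 1 lower (Idh2, -0.97), and 3 without cluster 16. PP cells had 1 higher (Me1, 1.47) and 1 lower (Acly, -1.77), and 1 higher and 8 lower without TMM scaling. Endothelial cells had 1 higher and 7 lower, 3 of each without TMM scaling, and 0 higher and 10 lower without the duct-led cluster, where the median of all genes was -0.49. Stellate cells had 1 higher and 1 lower. The median of the list was -0.46 in alpha, -0.24 in delta, -0.08 in PP, -0.37 in endothelial and -0.37 in stellate cells. Of 15 tested glycolysis genes, 1 was lower in alpha cells (Aldoa, -1.004; 4 without TMM scaling), 1 higher in delta cells (Aldoc, 1.09) and none passed in PP cells, where 1 did at an unadjusted p of 0.05 by edgeR. The Aldoc call was lost without cluster 16 (0.68, adjusted p = 0.233 by edgeR) and with cluster 3 alone as delta (1.18, adjusted p = 0.0501), and no other glycolysis gene was higher there. Endothelial cells had 4 higher and 4 lower, among them Eno1 at 1.44 and Pkm at -1.91. Without the duct-led cluster 1 was higher and 5 lower, Eno1 was at 0.12 (adjusted p = 0.763 by edgeR) and Pkm at -1.66. Stellate cells had 1 higher and 2 lower.

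The genes that act beside G6pc2 split. Slc37a4, the transporter that carries glucose-6-phosphate to the G6pc2 enzyme in the endoplasmic reticulum, was lower in all 5 types, at -1.20 in alpha, -1.05 in delta, -1.44 in PP, -1.89 in endothelial and -2.49 in stellate cells. Fbp1, a gluconeogenic phosphatase, was higher in alpha (4.91), delta (3.98) and PP cells (2.06), at 38.2 and 47.3 CPM in alpha cells, against 2.20 and 1.37 in beta cells. Of 13 tested genes around pyruvate dehydrogenase and pyruvate import, 1 was higher and 1 lower in alpha cells (Pdha1 at 0.60, Pdp2 at -1.41), 1 lower in delta cells (Pdp2, -1.21) and 1 higher in PP cells (Pdhb, 0.72). Endothelial cells had 1 higher (Mpc2, 0.86) and 1 lower (Pdpr, with 0 UMIs there against 93 in beta cells). Without the duct-led cluster Mpc2 was reversed (-0.78, adjusted p = 0.0312 by edgeR) and the Pdpr call was lost (adjusted p = 0.0947 by edgeR). Among 8 tested lactate and monocarboxylate genes, Slc16a10 was higher and Emb lower in alpha (1.06 and -1.30) and PP cells (1.46 and -1.02), Bsg was higher in PP cells (1.46) and Ldhb in stellate cells (2.22). Of 5 tested glucose transporters and hexokinases, the fructose transporter Slc2a5 was lower in alpha (-0.92), delta (-0.67), endothelial (-5.36) and stellate cells (-3.62). The delta call of Slc2a5 was lost without cluster 16 (-0.58, adjusted p = 0.10 by edgeR) and kept with cluster 3 alone as delta (-0.68, adjusted p = 0.0372). Slc5a1, a sodium-glucose transporter with 3 UMIs in beta cells, had a ratio of 368 (95% counting interval 120 to 1832) in endothelial cells, at 24.1 and 164 CPM from 5 and 58 UMIs. Without the duct-led cluster 4 genes of that list were tested, and none was higher in endothelial cells.

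Across the 12 sums, the genes most like each of the 9 were named by Pearson r of log2(CPM + 1) among genes with a mean of at least 20 CPM. The points share libraries, depth and cell type names, so r is a description. G6pc2 was most like Prlr (0.985), Ppp1r1a (0.979) and Ins2 (0.976), and Slc2a2 like Rtn4 (0.960), Gng12 (0.947) and Bace2 (0.940). Pcx was most like Cyfip2 (0.990), Rspo4 (0.981) and Ppm1l (0.960), and Gpd2 like Xpot (0.9498), Edem3 (0.942) and Samd4b (0.911). Pdk4 was most like Kcnk3 (0.927), Gcg (0.869) and Cst3 (0.856), and Ldha like Mef2c (0.967), Mrps6 (0.967) and Crip2 (0.960). Hk1 was most like Id1 (0.942), Id3 (0.941) and Clec2d (0.938). For the sparse Slc2a1 the nearest were 1810009A15Rik (0.927), Cic (0.910) and Nck1 (0.892), and for Slc16a1, on 7 UMIs, Rp9 (0.805), Rab20 (0.779) and Supt3 (0.770).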

How the data were processed

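Islets were measured by single-cell Nanopore sequencing, and the 2 libraries of the modified 5' assay were analysed. The authors deposited raw UMI counts per cell for genes and transcripts, and a cell table with clusters and cell type names; their names call them subsets, of what is not stated. The submitters' processing notes name mm10 and Seurat; aligner, counter and use of strand are not given in the sources used here. Barcodes outside the cell table (1581 and 1031) were left out. Deposited counts were summed per library and cell type and tested with edgeR 4.0.16 (TMM scaling, filterByExpr, quasi-likelihood test, 5 residual degrees of freedom) with cell type and library as terms, since each library gives every type. Transcript usage was tested with diffSpliceDGE on transcripts with at least 10 UMIs and 5% of their gene. Transcripts were joined to genes by GENCODE M21 (69648 of 69994, holding 99.926% of UMIs). Doublets were left in, apart from 1 alternative without the 6% of cells with the highest Scrublet score, since the automatic call marked 0.125 and 1.281% of cells. Where a type held at most 3 UMIs, the ratio of summed counts is given with an exact interval. Within each list, up to 3 called genes above 50 UMIs, by adjusted p, were named for each comparison, and the 3 genes most like each member by r. The members and lists were chosen with earlier results of these data known. The test was checked on simulated data. Alternatives were DESeq2 1.42.0, no TMM, other filters, thinned cells, single libraries and other cell groupings.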

Additional observations from a re-analysis of the deposited data

Results flagged for a closer look

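All 9 genes had UMIs in the barcodes that the authors' cell table leaves out, 1581 barcodes in replicate 1 and 1031 in replicate 2, which no comparison uses. Slc2a2 was at 653 and 739 CPM there and G6pc2 at 1671 and 941 CPM. Pcx was at 52.8 and 84.8 CPM and Gpd2 at 110 and 104 CPM. Pdk4 was at 13.7 and 7.60 CPM, Ldha at 16.2 and 24.6 CPM, Hk1 at 4.57 and 7.60 CPM and Slc2a1 at 4.57 and 5.32 CPM. Slc16a1 was at 1.02 and 1.27 CPM, from 2 and 5 UMIs, and the replicate 1 count was under the 3 UMIs that a count of 0 allows. With no control samples, each value was set against the limit that a count of 0 allows. What these barcodes hold was not tested.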

How the results depend on the processing

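The number of the 8 genes called against beta cells was 6 in alpha, 7 in delta, 6 in PP, 6 in endothelial and 7 in stellate cells, and across the alternatives it stayed between 5 and 7. No gene was called for transcript usage under any alternative run. Of 338 fold changes recomputed with both libraries, 325 kept their direction and side of the threshold. With cell types taken from clusters of transcripts, Ldha was at -6.13 in alpha, -3.09 in delta and -4.76 in PP cells and Hk1 at -0.46 in delta cells, all reversed. In that grouping the cluster 16 cells were named beta (7 of 7 and 6 of 7), and they held 103 of 106 and 402 of 405 Ldha UMIs of the beta class. Hk1 in PP cells lost its call there (1.24, adjusted p = 0.333 by edgeR) and with thinned cells (4.82, adjusted p = 0.0861), and Hk1 in delta cells with thinned cells (4.05, adjusted p = 0.056); the cause was not tested. Ldha in alpha cells was at -0.13 without TMM, and Pdk4 in endothelial cells, on 1 UMI, at -1.84 with thinned cells and -3.86 without the duct-led cluster. Pcx in stellate cells, on 1 UMI, lost its call with DESeq2 (-3.71, adjusted p = 0.0564). Fitted on a single library there is no test; 35 of 80 such values moved by more than the replicate spread.

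Fits with the library as a block were the main ones, because each library gives every type. With no replicate block the calls among the 8 genes stayed at 6, 7, 6, 6 and 7, while calls over all genes were 1281 in alpha, 862 in delta and 1149 in PP cells, against 2522, 1831 and 2297 with it. Without TMM they were 4030 in alpha and 3376 in PP cells, with the median of all genes at -0.39 and -0.41. With thinned cells they were 1099, 610, 677 and 2356 in alpha, delta, PP and endothelial cells (4758 with all UMIs in endothelial cells), and DESeq2 called 1195 in delta cells, with 70.3% higher, and 71.2% higher in stellate cells, against 63.6 and 55.0%. Depth limits Slc16a1, Slc2a1 and Hk1 most, with 7, 126 and 126 UMIs in cells.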
